A study of Mus musculus with 6 samples.

Results

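The cytochrome P450 genes of the mouse were examined for accessible chromatin in samples labelled liver from mice kept on a high-fat diet. Members were the protein-coding RefSeq genes whose symbol has Cyp, a digit, a letter and a digit, without Cyp7a1, Cyp7b1, Cyp8b1, Cyp27a1, Cyp2e1 and Cyp1a2. This rule gave 77 genes of the 21887 protein-coding genes in the annotation, namely 46 of family Cyp2, 9 of subfamily Cyp3a, 20 of family Cyp4, and Cyp1a1 and Cyp1b1. ATAC-seq, in which a transposase inserts adapters into open DNA, was run on 6 libraries. All came from wild-type males fed the high-fat diet, with 3 libraries of the inbred strain C57BL/6J and 3 of the inbred strain 129S1/SvImJ. The labels name liver as the tissue, give no age, and do not say whether a replicate is a separate animal. Their protocol calls the isolated material put into the reaction LMs and does not spell this out, so the cells behind the intervals are known only as labelled liver. An antibody entry naming Esrrg also stands on all 6 libraries, and intervals are read here as accessible sites because the assay is given as ATAC-seq. The deposited data were a combined list of 120905 interval positions, 201 to 401 bp wide, on mm10. Because the list names no strain or library and gives no score, the C57BL/6J and 129S1/SvImJ libraries could not be compared and the depth behind an interval is unknown.

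P450 enzymes are heme proteins of the endoplasmic reticulum and mitochondria that insert an oxygen atom into their substrates with electrons passed on by a reductase. In liver, families Cyp1, Cyp2 and Cyp3 act on drugs, toxins and steroids, and family Cyp4 hydroxylates fatty acids and eicosanoids. Many mouse members stand in tandem stretches of duplicated genes, and their transcription is governed by receptors for foreign compounds, by the fatty acid receptor encoded by Ppara and, for sex-dependent members, by the rhythm of growth hormone.

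The labelled tissue was checked against marker genes. Of 12 hepatocyte marker genes 11 had an interval within 1 kb of an end of the gene span, among them Alb, Apoa1 and Cps1, whereas the count was 3 of 8 for Kupffer cell and macrophage markers, 3 of 5 for endothelial markers, 1 of 5 for lymphocyte markers, and 2 of 4 each for cholangiocyte and stellate cell markers. Over other protein-coding genes this share was 61.5%. Median counts were 4 intervals for hepatocyte markers, 2 for Kupffer cell and macrophage markers, 7 for endothelial markers and 1 for lymphocyte markers, against 3 for other protein-coding genes. Among macrophage markers Cd68 had 5, Marco 4, Timd4 and Csf1r 3 each and Clec4f 1, whereas Adgre1, C1qa and Cd163 had 0. In a list combined from bulk libraries, few cells with an open site and a weakly open site in all cells cannot be told apart.

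As a group, P450 genes carried few intervals. Within the gene span and 10 kb to either side, members had a median of 1 interval (quartiles 0 and 3, range 0 to 7), against a median of 3 (quartiles 1 and 5) for the other protein-coding genes. No interval lay in this window for 32 of the 77 members (41.6%, exact Clopper-Pearson 95% interval 30.4 to 53.4). The 45 members with 1 or more were 58.4%, against 84.0% of other protein-coding genes. An interval within 1 kb of an end of the span was present in 30 members (39.0%, 28.0 to 50.8), against 61.5% of other protein-coding genes. At both ends, 5 of the 77 members had one, against 2113 of 21810 other protein-coding genes. Members were not shorter, with a median span of 24.0 kb against 17.1 kb for other genes. Other genes with spans in the middle range of the members, 13.7 to 34.9 kb, had a median of 3 intervals, and 69.0% of them had one at an end.

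In all, 117 distinct intervals lay in the members' spans and flanks, of which 65 touched a span and 10 were shared by 2 neighbouring members. Merged into 3440 kb of sequence, the windows held 3.40 intervals per 100 kb (exact Poisson 95% interval 2.82 to 4.08), against 5.93 for other protein-coding genes. Of the 117 intervals 62 (53.0%, 43.5 to 62.3) were wider than the narrowest width of 201 bp, against 59.7% around other genes and 65.9% around other genes with spans in the middle range of the members. Counted without the intervals of 201 bp, 19.5% of members had an interval at an end, against 51.8% of other protein-coding genes, and 12.7% had one on the promoter. These error ranges cover counting error alone, and neighbouring members share their surroundings, so the ranges, which treat genes as independent, are too narrow.

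The subfamilies covered a wide range. The share of members with an interval at an end was 70.0% in Cyp4 (14 of 20, exact 95% interval 45.7 to 88.1), 28.3% in Cyp2 (13 of 46, 16.0 to 43.5) and 11.1% in Cyp3a (1 of 9, 0.281 to 48.2), and both Cyp1a1 and Cyp1b1 had one. Median counts ran in the same order, with 3 intervals per Cyp4 gene, 1 per Cyp2 gene and 0 per Cyp3a gene. Per 100 kb, the windows of Cyp4 held 6.55 intervals (4.85 to 8.67), those of Cyp2 held 2.64 (2.00 to 3.43) and those of Cyp3a held 0.639 (0.132 to 1.87). The range of Cyp4 held the 5.93 of all other protein-coding genes and the 7.51 of those with spans of 13.7 to 34.9 kb, and the ranges of Cyp2 and Cyp3a lay below both. Counted without the intervals of 201 bp, however, the share of Cyp4 genes with an interval at an end was 40.0%, below the 51.8% of other protein-coding genes under the same setting. With end windows of 500 bp it was 50.0%, against 56.1% of other protein-coding genes. For the density, the ranges of Cyp4 did not overlap those of Cyp2 or Cyp3a. For the share at ends they did not overlap those of Cyp2. Without Cyp2c, however, the ranges of Cyp2 were 3.43 to 5.99 for the density and 21.8 to 57.8 for the share at ends. Both overlapped those of Cyp4, and the first held the 5.93 of other protein-coding genes. No test of these differences was run, because members of a stretch are not independent.

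**Figure D1:**
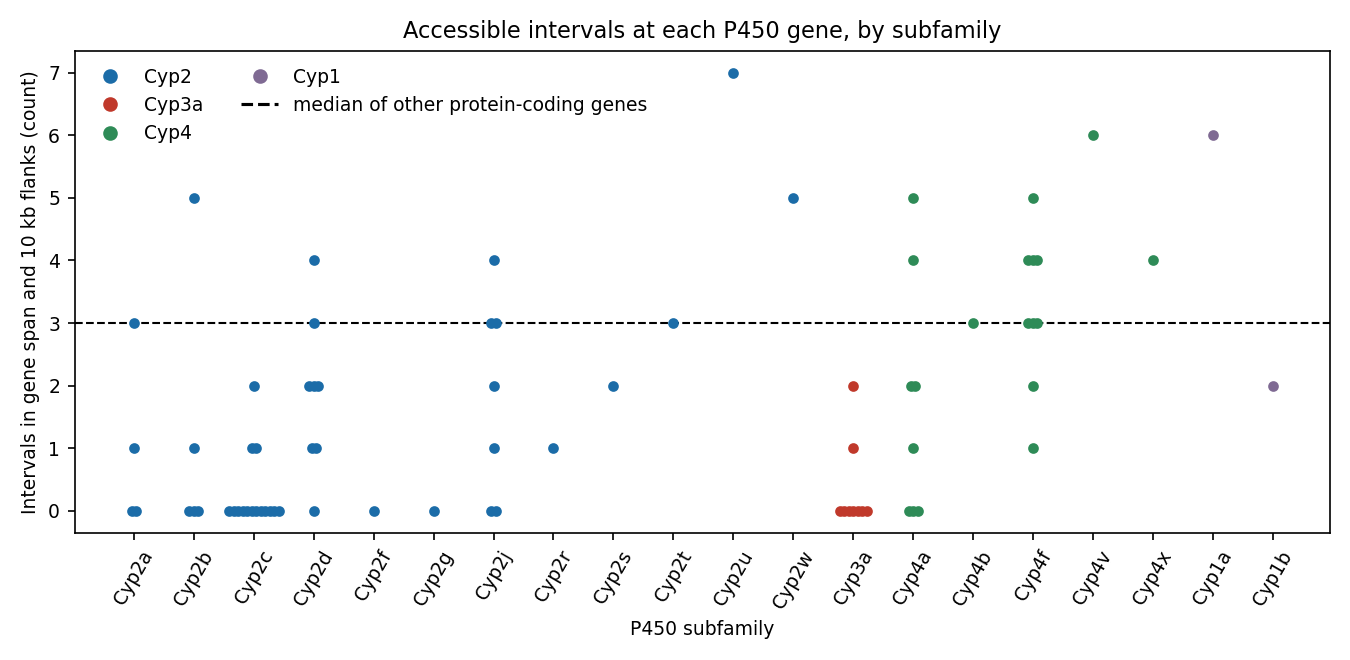
Number of accessible intervals in the gene span and 10 kb to either side (vertical axis) for each of the 77 P450 members, 1 point per gene, by subfamily (horizontal axis). The dashed line is the median of 3 for other protein-coding genes; 12 of 15 Cyp2c genes and 7 of 9 Cyp3a genes lie at 0, whereas all 9 Cyp4f genes lie at 1 or above.

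**Figure D2:**
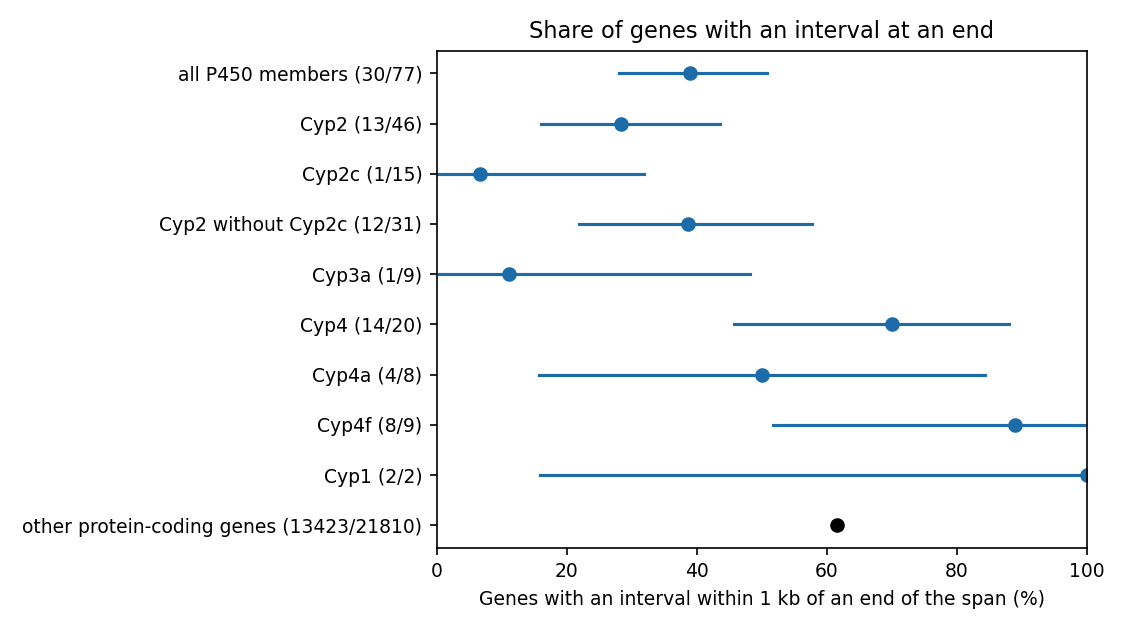
Share of genes with an interval within 1 kb of an end of the span, with exact Clopper-Pearson 95% intervals as bars and the count of genes in brackets. Cyp4f reached 88.9% and Cyp2c 6.67%, on either side of the 61.5% of other protein-coding genes.

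The Cyp3a genes encode drug-oxidising P450 enzymes of liver, and their main stretch was almost empty. The stretch from Cyp3a57 to Cyp3a59 on chromosome 5 (145345149 to 146114978) spans 770 kb and holds 8 members. With 10 kb to either side it contained 3 intervals, or 0.380 per 100 kb (exact Poisson 95% interval 0.0783 to 1.11), and each was 201 bp wide. Cyp3a57, Cyp3a16, Cyp3a41b, Cyp3a41a, Cyp3a44, Cyp3a11 and Cyp3a25 had no interval in the span or flanks. Cyp3a11, the main adult form and a textbook target of the pregnane X receptor, was 31977 bp from its nearest interval. For Cyp3a41a, Cyp3a41b and Cyp3a44, which are known as female-predominant forms and were examined here in males, these distances were 57311, 51806 and 105940 bp. Cyp3a16, a form of fetal and newborn liver, was 155687 bp away, Cyp3a57 was 64527 bp away and Cyp3a25 was 65161 bp away. The other member of the subfamily, Cyp3a13, lies apart on the same chromosome and had 2 intervals, the nearer one 213 bp wide and centred 759 bp upstream of the annotated start.

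Cyp3a59 was the exception in the stretch. A 201 bp interval at chr5:146079051-146079251 was centred 107 bp upstream of its start. Cyp3a25, its neighbour, has a promoter that is 96.3% identical and carried no interval. The RefSeq promoters (GRCm38.p6, 250 bases before to 50 after the start) are shown to set this pair side by side. Capitals in Cyp3a59 (plus strand, chr5:146079008-146079307) mark the bases covered by the interval, and capitals in Cyp3a25 (minus strand, chr5:146009568-146009867) mark the 11 bases that differ from Cyp3a59, the other 289 being identical. This pair was chosen after its values were seen.
Cyp3a59: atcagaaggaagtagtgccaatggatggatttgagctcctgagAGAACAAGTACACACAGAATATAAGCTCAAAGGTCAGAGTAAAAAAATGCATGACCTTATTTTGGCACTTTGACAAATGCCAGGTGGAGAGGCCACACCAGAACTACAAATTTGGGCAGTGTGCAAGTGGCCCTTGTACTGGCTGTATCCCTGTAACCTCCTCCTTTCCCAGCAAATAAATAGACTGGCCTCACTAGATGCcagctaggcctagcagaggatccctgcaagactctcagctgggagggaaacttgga
Cyp3a25: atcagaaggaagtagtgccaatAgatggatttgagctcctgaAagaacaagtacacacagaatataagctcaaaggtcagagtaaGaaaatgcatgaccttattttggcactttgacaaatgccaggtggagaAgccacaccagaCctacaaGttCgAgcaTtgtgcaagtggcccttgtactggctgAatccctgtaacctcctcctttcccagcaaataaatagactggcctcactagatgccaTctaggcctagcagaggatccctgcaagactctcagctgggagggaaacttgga

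The Cyp2c genes, which encode drug hydroxylases and arachidonate epoxygenases, held the widest gap among the members. From Cyp2c55 to Cyp2c70 on chromosome 19 (39006940 to 40187286), 1180 kb with 14 members and the 10 kb to either side held 2 intervals, 0.167 per 100 kb (exact Poisson 95% interval 0.0202 to 0.602). The first, 201 bp wide, was centred 1658 bp upstream of the start of Cyp2c55. The second, 281 bp wide, lay inside Cyp2c70, which makes muricholic bile acids in the mouse, and was centred 18.7 kb downstream of its start. Between these intervals lay 1160 kb without any, holding Cyp2c55, Cyp2c65, Cyp2c66, Cyp2c29, Cyp2c39, Cyp2c38, Cyp2c67, Cyp2c68, Cyp2c40, Cyp2c69, Cyp2c37, Cyp2c54 and Cyp2c50. It ranked 12th in width among the 117738 gaps between neighbouring intervals on the autosomes, whose median was 10.2 kb. Cyp2c29, an abundant liver form, was 281583 bp from the nearest interval, and Cyp2c67 was 519331 bp away. Cyp2c23, an arachidonate epoxygenase gene outside the stretch on the same chromosome, had 2 intervals of 201 bp, 1 of them at an end.

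Chromosome 19 carried fewer intervals than the rest of the genome, at 27.4 per Mb against 40.9 to 58.5 on the other autosomes. Other protein-coding genes of chromosome 19 nevertheless had an end share of 59.0% and 3.84 intervals per 100 kb of their windows, against 6.67% and 0.401 for the 15 Cyp2c genes. Without the members of chromosome 19, 29 of 62 members (46.8%) had an interval at an end and the median was 2. Without Cyp3a and Cyp2c together, 28 of 53 (52.8%) did, with a median of 2 and a density of 5.59 per 100 kb.

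**Figure D3:**
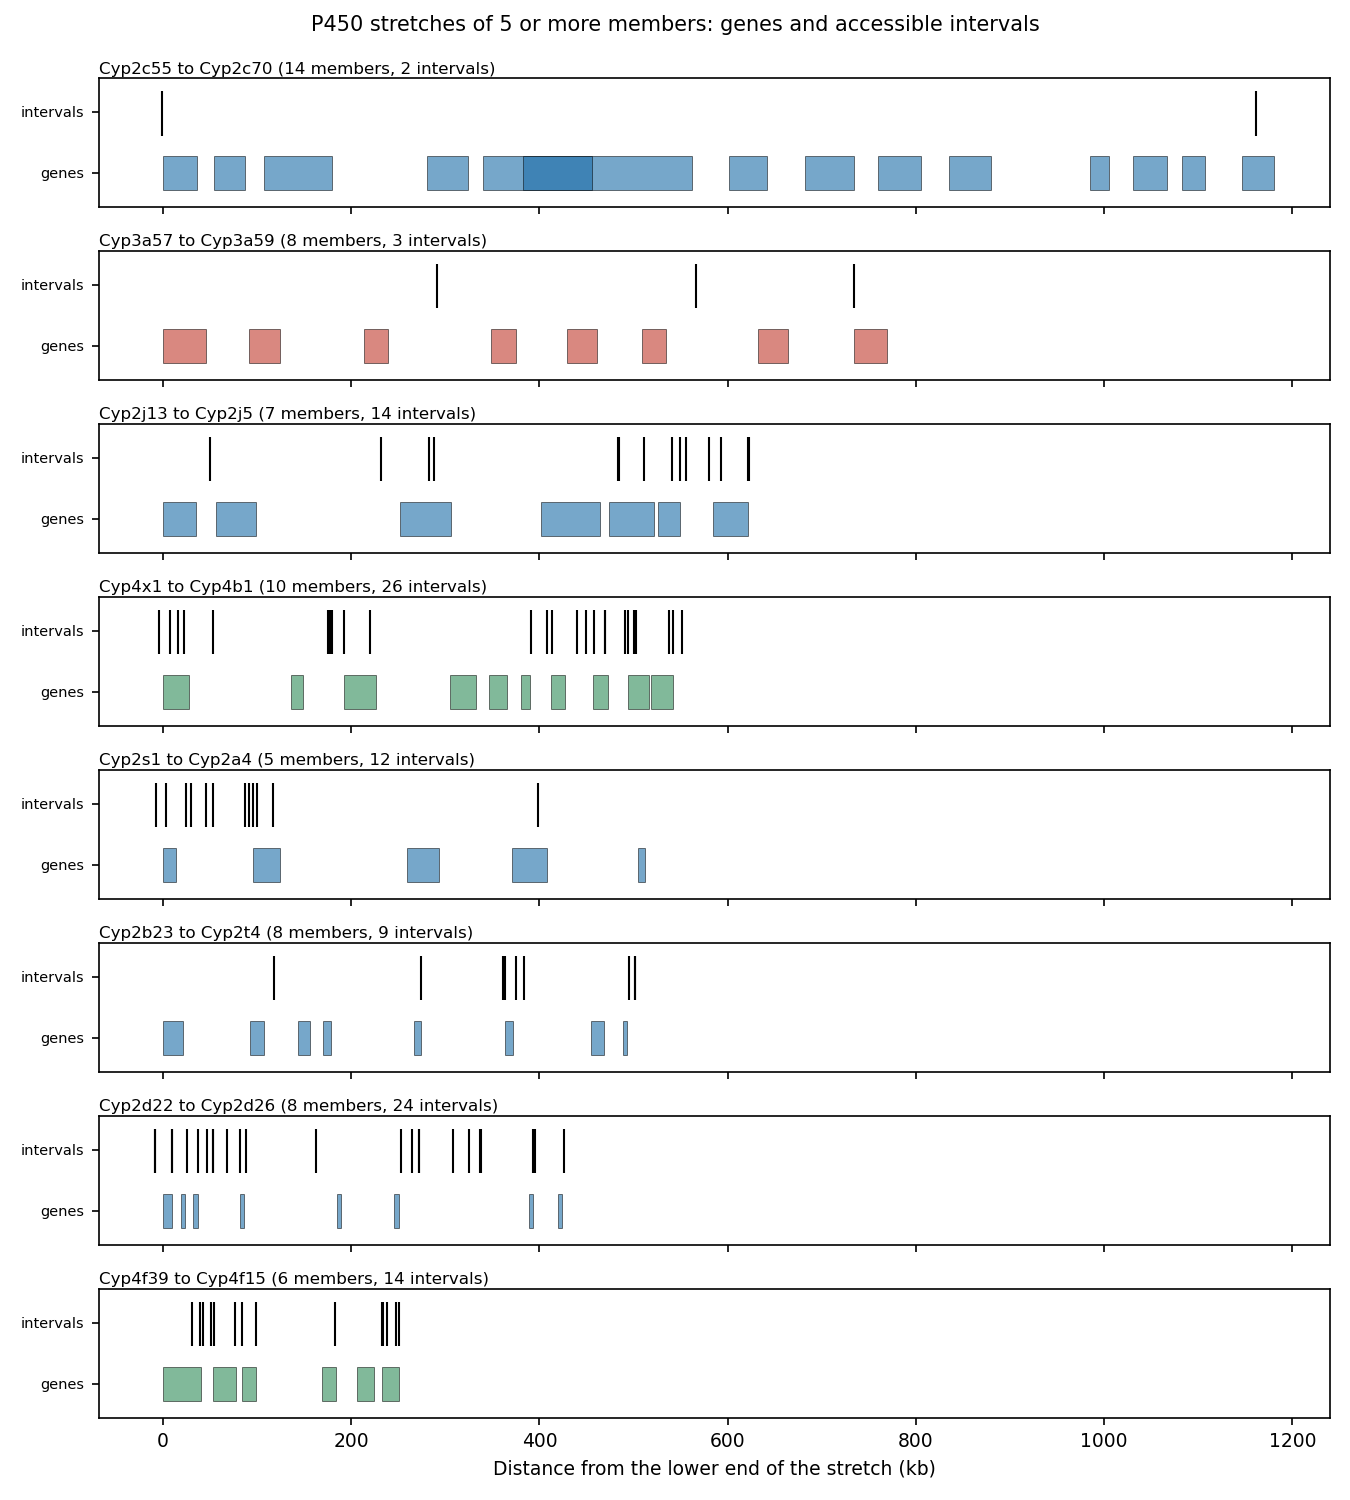
Maps of the 8 stretches with 5 or more P450 members (neighbouring spans less than 200 kb apart), drawn to scale by distance from the lower end of each stretch in kb. Boxes are gene spans and upright lines are interval centres, counted with 10 kb to either side; the Cyp2c stretch of 1180 kb has 2 intervals and the Cyp4x1 to Cyp4b1 stretch of 541 kb has 26.

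The remaining Cyp2 genes ranged from 0 to 7 intervals. Without Cyp2c, 12 of 31 had an interval at an end (38.7%, exact 95% interval 21.8 to 57.8). In Cyp2b on chromosome 7 the intervals gathered at Cyp2b10, the classical phenobarbital-induced gene under the constitutive androstane receptor encoded by Nr1i3. It had 5 intervals, at 7933 and 4268 bp upstream of the start, across the start itself, and 4.88 and 22.0 kb downstream. The related Cyp2b13, Cyp2b19 and Cyp2b23 had 0, and Cyp2b9 had 1 inside the gene, 27.8 kb from its start. Cyp2b9 and Cyp2b13 are female-predominant liver forms, and their promoters were 99.3% identical to each other.

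Cyp2a genes split in the same way. Cyp2a12 had 3 intervals, 1 of them centred 49 bp upstream of its start, and Cyp2a22 had 1, centred 58 bp upstream. Cyp2a5, the coumarin hydroxylase of mouse liver, and Cyp2a4, a female-predominant steroid hydroxylase, had none, and the nearest intervals were 51795 and 41705 bp from their spans. The promoters of Cyp2a4 and Cyp2a5 were 98.0% identical, those of Cyp2a12 and Cyp2a22 87.3%. In the same region Cyp2f2, which activates naphthalene, and Cyp2g1, an olfactory form, had 0 intervals, Cyp2s1 had 2 and Cyp2t4 had 3, all outside its span.

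In Cyp2d and Cyp2j most members had 1 or more intervals. The Cyp2d stretch on chromosome 15 spans 424 kb and held 24 intervals with its flanks (5.41 per 100 kb, 3.46 to 8.04), and 7 of its 8 members had 1 or more. Only 12 of the 24 lay in the span and 10 kb flanks of a member. Of these 12, 2 (16.7%) were wider than 201 bp, against 59.7% around other protein-coding genes. Cyp2d22, a counterpart of the human drug hydroxylase CYP2D6, had 4, and Cyp2d9, a male-predominant testosterone hydroxylase, had an interval on its start, as had Cyp2d10. The intervals on both starts were 201 bp wide. Cyp2d12 had 0. The Cyp2j stretch on chromosome 4, whose enzymes form epoxides of arachidonic acid, spans 622 kb and held 14 with its flanks (2.18 per 100 kb), and 2 of its 7 members had one at an end. They crowded at its upper end, where Cyp2j6, Cyp2j9 and Cyp2j5 had 3, 3 and 4. An interval overlapped the promoter of each and covered the annotated start of Cyp2j6 and Cyp2j5. Cyp2j13 and Cyp2j8 had 0, Cyp2j12 had 1 and Cyp2j11 had 2.

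Cyp2 genes that stand alone had from 1 to 7 intervals, with 2 at Cyp2c23 described above. Cyp2u1, a fatty acid hydroxylase on chromosome 3, had 7 intervals, the most of any member, 6 of them wider than 201 bp. Cyp2w1, known from fetal gut and colon tumours, had 5, of which 1 lay at the far end of the span. Cyp2r1, the hepatic vitamin D hydroxylase, had a solitary 218 bp interval that covered its start, centred 73 bp upstream. Over all families, 8 of 9 members with no other member within 200 kb had an interval at an end (88.9%, exact 95% interval 51.8 to 99.7). This share was 17 of 44 (38.6%) in stretches of 2 to 9 members and 5 of 24 (20.8%) in stretches of 10 or more. The last class joins the Cyp2c55 to Cyp2c70 stretch, with 0 of 14, and the Cyp4x1 to Cyp4b1 stretch, with 5 of 10. The lone class includes Cyp1a1 only because its neighbour Cyp1a2 was left out by the rule. On chromosome 9 Cyp1a2 ends at 57683655 and the Cyp1a1 span begins at 57687928. On promoters, an interval was present for 2 of 7 lone members with a promoter entry (28.6%). It was present for 13 of 39 (33.3%) in stretches of 2 to 9 members and 2 of 17 (11.8%) in stretches of 10 or more.

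The promoters of Cyp2b10 (plus strand, chr7:25897408-25897707) and Cyp2r1 (minus strand, chr7:114562923-114563222) are given because an interval lay on each start, and capitals mark the bases it covered, 163 in Cyp2b10 and 218 in Cyp2r1.
Cyp2b10: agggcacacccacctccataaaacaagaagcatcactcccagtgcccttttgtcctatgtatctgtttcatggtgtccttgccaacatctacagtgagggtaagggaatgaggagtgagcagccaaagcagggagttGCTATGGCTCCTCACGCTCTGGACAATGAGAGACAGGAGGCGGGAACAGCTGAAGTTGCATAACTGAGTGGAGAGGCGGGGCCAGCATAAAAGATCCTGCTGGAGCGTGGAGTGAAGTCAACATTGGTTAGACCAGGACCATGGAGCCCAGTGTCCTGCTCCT
Cyp2r1: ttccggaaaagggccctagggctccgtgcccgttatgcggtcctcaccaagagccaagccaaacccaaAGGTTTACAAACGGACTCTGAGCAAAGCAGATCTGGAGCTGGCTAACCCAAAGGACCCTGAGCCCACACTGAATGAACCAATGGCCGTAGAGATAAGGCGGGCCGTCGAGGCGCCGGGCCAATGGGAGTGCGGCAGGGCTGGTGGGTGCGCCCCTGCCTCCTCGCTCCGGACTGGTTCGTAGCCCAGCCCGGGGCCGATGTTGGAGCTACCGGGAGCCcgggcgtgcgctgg

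Among Cyp2, Cyp3a and Cyp4, the Cyp4 genes had the highest coverage. In Cyp4f, whose enzymes hydroxylate leukotrienes and long-chain fatty acids, all 9 members had 1 or more intervals and 8 had one at an end (88.9%, exact 95% interval 51.8 to 99.7). At both ends, 4 of the 9 had one, against 2113 of 21810 other protein-coding genes. Cyp4f15 had 5, Cyp4f39, Cyp4f17 and Cyp4f13 had 4 each, Cyp4f16, Cyp4f14 and Cyp4f18 had 3 each, Cyp4f40 had 2 and Cyp4f37 had 1. Cyp4f40 was the exception at its ends, since both of its intervals belonged to the neighbouring Cyp4f15. The starts of Cyp4f13, Cyp4f14, Cyp4f15 and Cyp4f16 each lay under an interval. Those at Cyp4f14 and Cyp4f13 were among the wider ones, at 277 and 265 bp.

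The Cyp4a genes, textbook targets of PPAR alpha, were uneven. Cyp4a32 had 5 intervals, with 1 of 214 bp centred 180 bp upstream of its start, and Cyp4a31 had 4, all between 223 and 308 bp. Cyp4a10 and Cyp4a12a had 2 each, with 1 at the lower end of the span in both. Cyp4a14, induced by fasting and by PPAR alpha agonists, had 1 interval of 203 bp, 1449 bp beyond the upper end of its span and none inside. Cyp4a12b, Cyp4a29 and Cyp4a30b had 0, so 4 of 8 Cyp4a genes had an interval at an end. Cyp4a12a and Cyp4a12b are known as closely related copies of a male-predominant arachidonate hydroxylase, and how reads were divided between them was not tested. Among the remaining Cyp4 genes, Cyp4v3, a fatty acid hydroxylase, had 6 with 1 across its start, Cyp4x1 had 4 and Cyp4b1 had 3, with 1 centred 109 bp upstream of its start.

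Cyp1a1 and Cyp1b1, both induced through the aryl hydrocarbon receptor encoded by Ahr, had 6 and 2 intervals. At Cyp1a1 on chromosome 9 the nearest to the start was 210 bp wide, at chr9:57696523-57696732, and centred 986 bp upstream, and the next was centred 1040 bp downstream. The promoter itself carried no interval. The interval counted at an end of the Cyp1a1 span lay 9866 bp upstream of this start, because the annotated span reaches further than the start in the promoter table. At Cyp1b1 a 209 bp interval was centred 673 bp upstream of the start.

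A promoter entry was found for 63 of the 77 members, and for 17 of them (27.0%, exact 95% interval 16.6 to 39.7) an interval overlapped it, against 52.2% of other protein-coding genes. The share was 53.8% in Cyp4 (7 of 13), 23.1% in Cyp2 (9 of 39) and 11.1% in Cyp3a (1 of 9), and it was 0 of 13 in Cyp2c and 0 of 2 for Cyp1a1 and Cyp1b1. Of the 17, 9 lay under an interval of 201 bp and 8 under a wider one. Of the hepatocyte markers, 3 of 9 with a promoter entry (33.3%) had an interval on it, which is also below the 52.2%. The median distance from an annotated start to the nearest interval centre was 0.180 kb in Cyp4, 4.57 kb in Cyp2 without Cyp2c, 64.8 kb in Cyp3a and 282 kb in Cyp2c, against 0.214 kb for other protein-coding genes. The Cyp4 value rests on the 13 of 20 genes with a promoter entry. Of these, 53.8% had a centre within 1 kb of the start and 38.5% had none within 10 kb, against 61.4% and 21.4% of other protein-coding genes. More than 50 kb separated 11 of 13 Cyp2c starts and 6 of 9 Cyp3a starts from the nearest interval, whereas this held for 7.85% of other protein-coding genes.

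**Figure D4:**
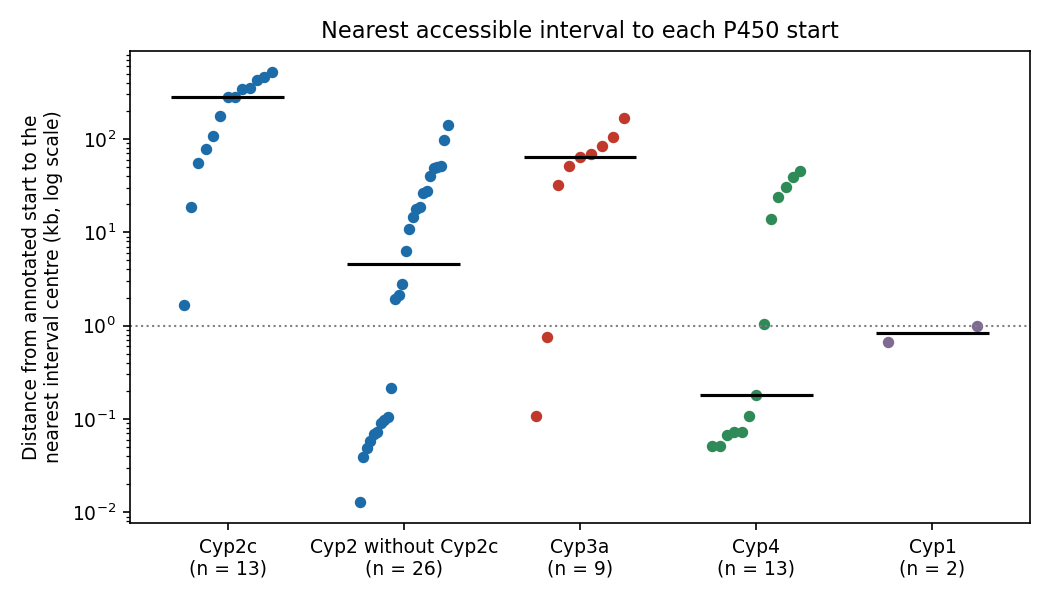
Distance in kb (log scale) from the annotated start of each of 63 P450 members to the nearest interval centre, 1 point per gene in ascending order within its group, with the median as a bar and 1 kb as a dotted line. The Cyp2c median of 282 kb is the highest and the Cyp4 median of 0.180 kb the lowest of the 5 groups.

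The promoters of sparse and covered members differed in composition. The median GC content was 35.7% in Cyp2c, 45.7% in Cyp3a and 54.0% in Cyp4, against 56.3% in other protein-coding genes. It was 53.0% in the 17 members with an interval on the promoter and 46.7% in the 46 without. Among other genes the corresponding values were 61.3% and 49.7%. Of the 4115 other genes with a GC content between 44.0% and 53.0%, the middle range of the members, 32.8% had an interval on the promoter. Over members of any GC content the share was 27.0%. The median GC content of Cyp2c lay below this middle range and that of Cyp4 above it. The part of base composition in the low share of P450 genes was not tested.

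Motif letters were searched on both strands of the 300 bases. TATAAA was present in 27 of 63 member promoters (42.9%), against 14.7% of other genes, and in 10 of 13 Cyp2c promoters. CAAAGTCCA, a site type of HNF4A, was present in 10 (15.9%), against 0.465% of other genes. All 10 were Cyp2c or Cyp3a genes, with none of the 17 covered promoters among them. Only 0 of 13 Cyp2c and 1 of 9 Cyp3a promoters were covered at all, and a link of these letters with coverage was not tested. TTATGCAA, the D-box read by the clock output factors encoded by Dbp, Tef and Hlf, was present in 6 (9.52%), against 0.912%, namely Cyp2a4, Cyp2a5, Cyp2b10, Cyp2b19, Cyp2b23 and Cyp4f14. Of these 6, Cyp2b10 and Cyp4f14 had an interval on the promoter. GCGTG, the core read by the aryl hydrocarbon receptor, was present in 13 (20.6%), against 41.5%, GTTAAT, part of the HNF1 site, in 10 (15.9%), against 7.28%, and TTCNNNGAA, of STAT5 type, in 4 (6.35%), against 8.93%. ATTGCGCAA, read by C/EBP factors, and direct repeats of AGGTCA spaced by 1, 3 or 4 bases were found in 0 of 63, against 0.0574% of other genes for ATTGCGCAA and for the spacing of 1, 0.00574% for the spacing of 3 and 0 for the spacing of 4. A match of letters is a description and not a binding site, and members that are duplicates of each other share their letters.

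Promoters without an interval are shown for Cyp3a11 (minus strand, chr5:145879805-145880104), Cyp2a5 (plus strand, chr7:26835089-26835388), Cyp2c29 (plus strand, chr19:39286835-39287134) and Cyp1a1 (plus strand, chr9:57697363-57697662), as well-known liver P450 genes whose starts were not covered, and capitals mark the motif letters named above on either strand.
Cyp3a11: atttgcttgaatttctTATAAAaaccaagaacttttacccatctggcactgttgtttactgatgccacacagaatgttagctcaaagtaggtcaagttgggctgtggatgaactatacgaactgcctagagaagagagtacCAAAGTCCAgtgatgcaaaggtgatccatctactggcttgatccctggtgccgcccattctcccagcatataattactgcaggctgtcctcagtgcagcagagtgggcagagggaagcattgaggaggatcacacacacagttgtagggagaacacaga
Cyp2a5: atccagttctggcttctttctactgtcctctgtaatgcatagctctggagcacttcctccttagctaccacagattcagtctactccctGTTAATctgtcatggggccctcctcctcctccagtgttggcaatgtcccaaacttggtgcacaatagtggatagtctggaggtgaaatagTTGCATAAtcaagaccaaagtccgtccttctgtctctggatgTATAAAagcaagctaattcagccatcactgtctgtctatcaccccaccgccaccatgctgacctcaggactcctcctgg
Cyp2c29: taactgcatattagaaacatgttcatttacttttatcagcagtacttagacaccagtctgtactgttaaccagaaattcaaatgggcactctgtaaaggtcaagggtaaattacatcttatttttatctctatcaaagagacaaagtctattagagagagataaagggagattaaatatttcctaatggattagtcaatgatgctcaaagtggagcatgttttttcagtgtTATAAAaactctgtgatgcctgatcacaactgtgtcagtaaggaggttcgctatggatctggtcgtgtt
Cyp1a1: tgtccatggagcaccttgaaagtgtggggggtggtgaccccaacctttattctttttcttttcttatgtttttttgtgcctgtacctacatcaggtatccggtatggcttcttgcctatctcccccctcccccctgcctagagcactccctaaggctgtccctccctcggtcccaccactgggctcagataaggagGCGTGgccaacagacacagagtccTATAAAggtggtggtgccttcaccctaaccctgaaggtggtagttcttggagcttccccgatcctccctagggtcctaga
In Cyp3a11 the capitals are TATAAA and CAAAGTCCA, in Cyp2a5 they are GTTAAT, TTATGCAA on the opposite strand and TATAAA, in Cyp2c29 TATAAA, and in Cyp1a1 GCGTG and TATAAA. The D-box letters of Cyp2a5 also stand, on the opposite strand, in the covered promoter of Cyp2b10 above.

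Among members with a promoter entry, those with a near-identical promoter had low counts. For each promoter the closest other P450 promoter was found by global alignment. Members without an entry, among them Cyp4a10, Cyp4a12a, Cyp4a12b, Cyp4a31 and Cyp4f17, were left out and could not be a closest relative. Cyp4a32, with 5 intervals, was thus not compared with Cyp4a10 (2 intervals) or Cyp4a31 (4 intervals), and its 61.3% is to Cyp4a29. How this shaped the values below was not tested. The 13 members whose closest promoter was 90% or more identical had a median of 0 intervals, and 11 of them (84.6%) had none in the span and flanks. These 13 were Cyp3a57, Cyp3a16, Cyp3a41a, Cyp3a41b, Cyp3a44, Cyp3a25 and Cyp3a59, with Cyp2c68, Cyp2c69, Cyp2b9, Cyp2b13, Cyp2a4 and Cyp2a5. Most are Cyp3a or Cyp2c genes of the sparse stretches, so promoter identity and subfamily cannot be told apart here. The 50 members below 90% had a median of 2, and 17 of them (34.0%) had none. Over the 63 members the rank correlation of identity with the interval count was -0.548 (Spearman), given as a description, since the members share stretches and ancestry. Some low identities were to a member of another family, such as Cyp2j5 to Cyp3a25 at 60.7% and Cyp4v3 to Cyp2a4 at 59.3%. The order of such values may not reflect likeness. Some members below 90% were also empty, among them Cyp2f2 at 60.3%. Cyp3a11 and Cyp2c29 were empty too, at 79.0% to Cyp3a16 and Cyp2c39 of their own subfamilies. Reads from near-identical copies can be hard to place, so counts of such members are uncertain, and the part of read placement in the low counts was not tested.

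**Figure D5:**
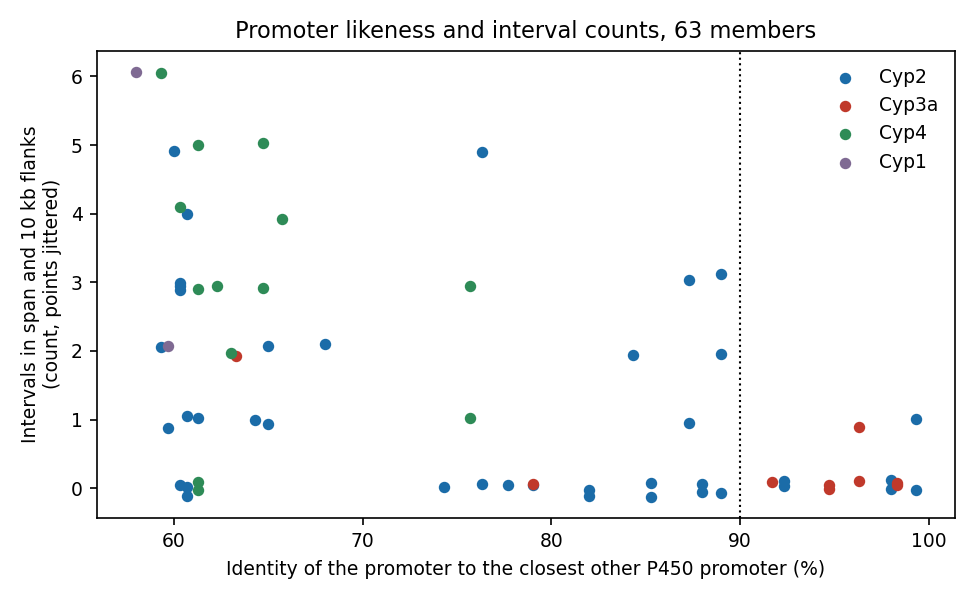
Identity of each promoter to the closest other P450 promoter in percent (horizontal axis) and the number of intervals in the span and 10 kb flanks (vertical axis, points moved slightly apart) for 63 members, coloured by subfamily. Right of the dotted line at 90%, 11 of 13 members have 0 intervals.

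The partners and regulators of P450 enzymes had higher counts than the members, and no test of this difference was run. Of 10 genes for electron donors and heme supply, 7 had an interval at an end (70.0%, near the 61.5% of other protein-coding genes) and the median was 6 intervals against their 3, with 10 at Por, the reductase that feeds microsomal P450 enzymes, 7 at Cyb5a and 1 at Alas1, the first enzyme of heme synthesis. Of 14 regulator genes, whose median span of 58.6 kb is longer than that of the members, 12 had one at an end (85.7%) and the median was 9. Per 100 kb, members held 3.40 intervals, against 12.6 for the donor and heme genes, 10.8 for the regulators, and 5.93 for other protein-coding genes. Nr1i2, which encodes the pregnane X receptor, had 9, Nr1i3 had 4, Ahr had 8, Ppara had 10, Hnf4a had 12 and Dbp had 3. The 6 P450 genes left out of the member list had a median of 4, with 20 at Cyp7b1, 6 at Cyp7a1, 5 at Cyp27a1, 3 at Cyp8b1 and 2 each at Cyp2e1 and Cyp1a2.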

How the data were processed

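ATAC-seq intervals came from 6 mouse liver libraries in 2 strain groups of 3. Per the submitters' processing notes, fastp, Bowtie2 and HOMER were used on mm10, without versions or order. The labels carry an antibody entry, Esrrg, on all 6 libraries, although the assay is ATAC-seq, and its part in the intervals is not known. Not given in the sources used here were any read shift, duplicate filter, threshold for peaks or method of merging libraries. The deposited table held, other than chromosome names, start and end positions made by the authors, with no count or signal, so no test between strains was possible. Starts were converted to 1-based positions.

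Genes and promoters came from RefSeq tables of GRCm38.p6, the same build as mm10. The gene table gave spans without strand or exons. Intervals were counted when they overlapped a window by at least 1 bp, with flanks of 10 kb and end windows of 1 kb. Stretches joined members less than 200 kb apart. Promoter identity was the number of identical bases in a global alignment per 300 bases (match 2, mismatch -1, gap opening -3, gap extension -1), the best pair of starts being used. Shares have exact Clopper-Pearson 95% intervals and densities exact Poisson 95% intervals. Counting was tested on simulated data. Python 3.11.15, pandas 2.3.3, numpy 2.4.6, scipy 1.17.1, Biopython 1.88 and matplotlib 3.10.9 were used.

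The members and lists were chosen with earlier results of these data known. Named were all Cyp3a, Cyp4 and Cyp1 members, the Cyp2 members with the most and fewest intervals per letter and textbook liver genes; further Cyp2 members, and Cyp3a59 and Cyp3a25 as printed promoters, were chosen after their values were seen. Alternatives were other windows and flanks, interval centres, only wider intervals, joined intervals, the 6 left-out genes added and intervals counted for the nearest member. The planned grouping by protein identity was not run, since no protein table was used here, and promoter identity took its place.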

Additional observations from a re-analysis of the deposited data

How the results depend on the processing

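Of 94 recalculations, 77 stayed within the 95% interval of the reported value (for medians, an order-statistic interval) and 17 did not. The cause was not tested except where fewer or wider windows and fewer intervals make it by construction. For small groups these intervals are wide, so staying within them shows little. With end windows of 500 bp, the end share of Cyp1a1 and Cyp1b1 went from 100% to 50% and still counted as within. Without the intervals of 201 bp the share with an interval at an end was 19.5% for all members (against 51.8% of other genes), 13% for Cyp2, 0% for Cyp3a and 40.0% for Cyp4, the promoter share was 12.7%, the Cyp4 median was 1, and the density was 1.80 per 100 kb for all members (against 3.54 for other genes), 1.30 for Cyp2 and 3.88 for Cyp4. Under this setting Cyp4 lay below the 51.8% of other genes at its ends, and with end windows of 500 bp it lay below them too, at 50.0% against 56.1%. With flanks of 50 kb the median was 3 for all members (against 8 for other genes), 7.5 for Cyp4 and 11.5 for Cyp1a1 and Cyp1b1, and with no flanks it was 1 for the last pair. With the 6 left-out genes the density was 4.09. Added after seeing the data, leaving out chromosome 19 gave a density of 4.63, and leaving out Cyp3a and Cyp2c gave 5.59 and an end share of 52.8%. No paired analysis was possible because the interval list carries no value per library, and for the same reason no library could be left out. Depth limits each count in a way that cannot be measured here.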

Other observations

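Of 33 annotated P450 pseudogenes, 14 (42.4%) had no interval in the span or the 10 kb to either side, against 50.5% of 10576 other pseudogenes. The median was 1, against 0, and 5 (15.2%) had an interval at an end, against 12.5%. Per 100 kb the P450 pseudogenes held 2.43 intervals, against 4 for other pseudogenes, and their median span was 10.5 kb, against 0.919 kb. Cyp2d13, a transcribed pseudogene on chromosome 15, had 3 intervals with 1 in its span, and Cyp4f41-ps had 3. The pseudogenes Cyp2c53-ps, Cyp2c71-ps and Cyp2c72-ps on chromosome 19 had 0, as had Cyp2b26-ps, Cyp2b27-ps and Cyp2b28-ps on chromosome 7.

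The gap in the Cyp2c stretch was 1 of the 25 widest gaps between neighbouring intervals on the autosomes, and the other gaps among those 25 held no P450 member. The widest, 4000 kb on chromosome 7, held 102 protein-coding genes that include many vomeronasal receptors, and the next, 2330 kb on chromosome 7, held 24 that include secretoglobins. Others held olfactory receptor and Pramel genes, and some held no protein-coding gene, such as a gap of 1230 kb on chromosome 19. The Cyp3a stretch was split by its intervals into gaps of 356, 275 and 167 kb, which ranked 148th, 270th and 909th.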
